A study of Mus musculus with 3 samples.

Results

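The genes described here are the interleukins and their receptors of mouse: every gene whose symbol starts with Il and a digit, except Il25, Il17rb and Il7r. The arrays measured 70 such genes, through 111 probe sets, out of 18193 genes with a symbol of their own. Where a gene had several probe sets, the one brightest on average stands for it. By role the 70 are 31 secreted interleukins, 31 receptor chains, 6 antagonists or decoys, 1 enzyme (Il4i1, an amino acid oxidase named for its induction by IL-4) and 1 antisense RNA (Il1bos).

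RNA came from follicle-associated epithelium, the cell layer over the lymphoid follicles of the small intestine, of untreated C57BL/6 mice. Wild type was measured on 1 array. RBP-J depleted epithelium, from mice with floxed Rbpj alleles and a Villin promoter driven Cre, was measured on 2 arrays. Villin drives Cre in intestinal epithelium, so Rbpj of blood and stromal cells in the sample is not the target. Age is not given in the labels, and the labels do not tie the depleted samples to individual mice. P-values then measure only the spread between these samples, which may be technical.

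Interleukins are short-range signals between immune cells, stroma and epithelium. Most act through receptors of paired chains, which pass the signal to JAK kinases and STAT factors. In the IL-1 and IL-17 families the signal passes to adaptor proteins that activate NF-kB. In gut epithelium IL-22 drives antimicrobial and repair genes, IL-13 and IL-4 drive goblet and tuft cell responses, and IL-17 drives chemokines. The epithelium itself makes IL-18, IL-33 and IL-15. Antagonists such as the IL-1 receptor antagonist, and soluble decoys such as the IL-22 binding protein, limit these signals. RBP-J binds DNA and carries the signal of Notch receptors to their target genes.

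All values are array intensities, scaled so that the median probe set of each array is 1. Differences are on the log2(value + 0.248) scale, depleted minus wild type, and understate the change of dim genes. Over all 11885 genes tested, which have a mean intensity of at least 0.598, the median difference was -0.003 in depleted replicate 1 and 0.22 in depleted replicate 2, so differences in replicate 2 are read against 0.22. The ratio of 3' to 5' control probe sets of Gapdh, a sign of RNA quality, was 1.83 in wild type, 2.28 in replicate 1 and 1.54 in replicate 2. That of Actb was 1.11, 1.15 and 1.02 in the same order. The female-specific RNA Xist read 0.297 on the wild type array against 42.8 and 43.4 after depletion, and Eif2s3y, on the Y chromosome, 20.6 against 0.122 and 0.056. The effect of sex and that of the genotype therefore cannot be told apart. Rbpj read 7.15 in wild type, 2.72 in replicate 1 and 5.74 in replicate 2, and its probe set may lie outside the deleted part. The 10 markers of epithelium, such as Epcam and Vil1, read between 16.4 and 169 in all arrays. Of these 10, 9 lay above wild type in both depleted arrays (39.0% of all genes tested), with list medians of 0.19 and 0.36. Of 8 markers of follicle-associated epithelium and M cells, 5 were higher in replicate 1 and 8 in replicate 2. Of all genes tested, 49.8% and 69.7% were higher. B cell, T cell and macrophage markers were also measured, so any gene here may come from several cell types, and fewer cells of a type and less RNA per cell cannot be told apart in such samples.

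The filter was passed by 22 of 31 receptor chains, 5 of 6 antagonists or decoys and 7 of 31 interleukins, 34 genes in all, beside 65.3% of all genes. These shares rest on different probe sets and were not tested. The 7 interleukins were Il18, Il33, Il1b, Il15, Il16, Il7 and Il1f8. The genes just inside the filter were Il12rb1, Il20rb and Il5ra, with means of 0.617, 0.656 and 0.675, and those just outside were Il23a, Il12b and Il10ra, with means of 0.580, 0.553 and 0.503. All 36 genes outside the filter read under the array median in every array, and 15 of them read under 0.248 in every array. A dim reading on an array gives no proof that a gene is silent.

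The interleukins of T cells and innate lymphoid cells were among those outside the filter: Il2, Il3, Il4, Il5, Il9, Il10, Il13, Il17a and Il21. So were Il6, Il11, Il12a, Il12b, Il23a and Il31 of the IL-6 and IL-12 families, Il20 and Il24 of the IL-10 family, and Il17b, Il17d and Il34. Of the IL-1 family they were Il1a, Il1f6, Il1f9, Il1f10 and the antagonist Il1f5. Of the receptors, Il1r1, Il1rapl1, Il1rapl2, Il1rl2, Il9r, Il10ra, Il17re, Il20ra and Il31ra did not pass, nor did Il4i1 and Il1bos. Il6, a broad inflammatory signal, read 0.022 against 0.016 and 0.013, wild type first. Il23a, a subunit of IL-23, which sustains IL-17 and IL-22 producing lymphocytes, read 0.883 against 0.419 and 0.437. Il34, a ligand of the CSF-1 receptor, read 0.276 against 0.119 and 0.525, and Il20ra, a chain of the IL-20 receptor, 0.071 against 0.033 and 0.018. Il10ra, the IL-10 binding chain, read 0.176 against 0.665 and 0.668. Its other probe sets gave differences of -1.09 and 0.37, and of -0.18 and 1.23, so they did not share its direction in replicate 1.

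No interleukin or receptor gene was called as different between depleted and wild type epithelium. With 1 wild type array, this does not show that the levels were equal. The limma test called 0 of the 34 genes at an adjusted p under 0.05, against 10 of all genes tested (0.0841%). Among those 10 were 4 sex-linked genes, Xist, Eif2s3y, Kdm5d and Uty. Every gene of the 34 had a limma adjusted p of 0.9997. An unadjusted p under 0.05 was given to 2 of the 34, Il1rn and Il33, against 270 of all genes tested (2.27%). The test has 1 residual degree of freedom, so the spread of wild type is taken to equal that of the depleted pair. To this limma adds 600.5 prior degrees of freedom, drawn from all genes tested. A gene's SE and p-value thus rest mainly on the spread of genes of like intensity, and little on its own depleted pair. All differences below are therefore descriptions of 3 arrays.

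At least 2-fold from wild type were 3 of the 34 genes in replicate 1, against 6.42% of all genes tested. Il1f8 was higher (3.19% of all genes), and Il33 and Il1rap were lower (3.23% of all genes). In replicate 2 they were again 3, against 5.21% of all genes, and all were higher (3.57% of all genes higher, 1.64% lower): Il22ra2, Il22ra1 and Il1rn. Less the median of 0.22 over all genes, their differences were 0.940, 0.997 and 0.850, under 2-fold, while that of Il15ra was -1.18. None of the 34 passed 2-fold in replicate 1 and replicate 2 alike, where 0.841% of all genes tested were 2-fold higher and 0.488% were 2-fold lower. Both depleted arrays lay above wild type for 17 of the 34 (39.0% of all genes) and below it for 9 (19.5% of all genes). The median difference was 0.07 in replicate 1 and 0.31 in replicate 2, beside -0.003 and 0.22 over all genes.

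**Figure D1:**
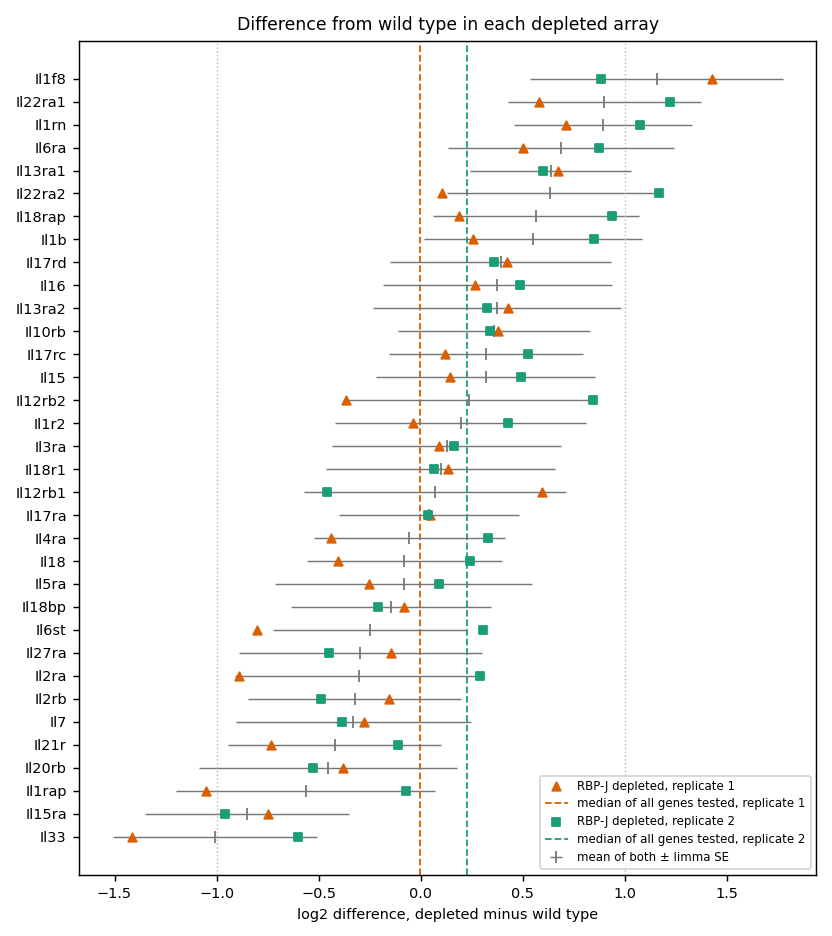
Log2 difference from wild type for the 34 interleukin and receptor genes tested, with triangles for depleted replicate 1, squares for replicate 2, and the mean with its limma standard error in grey; dashed lines mark the median of all genes tested in each array, at -0.003 and 0.22, and dotted lines mark 2-fold. Il33 and Il15ra lie lowest in the mean of both arrays, Il1f8, Il22ra1 and Il1rn highest, and no gene is past the same dotted line in both arrays.

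Promoters of the tested genes with an RBP-J match, and of the tested gene with the lowest mean difference, are shown because RBP-J is the factor that was depleted. They are the RefSeq windows of build GRCm38.p6, from 250 bases before to 50 bases after an annotated start, 5′ to 3′ on the gene's strand, with the match to the RBP-J motif GTGGGAA or its reverse complement TTCCCAC in capitals. Il1rn lies at chr2:24336610-24336909 (plus strand), Il6ra at chr3:89913147-89913446 (minus strand) and Il33 at chr19:29924863-29925162 (plus strand).
Il1rn: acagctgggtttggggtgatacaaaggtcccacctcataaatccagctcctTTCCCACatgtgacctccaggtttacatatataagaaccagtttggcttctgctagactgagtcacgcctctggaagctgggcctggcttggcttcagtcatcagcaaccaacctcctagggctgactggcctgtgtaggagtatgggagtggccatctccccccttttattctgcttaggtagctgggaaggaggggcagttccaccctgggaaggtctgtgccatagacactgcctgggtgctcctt
Il6ra: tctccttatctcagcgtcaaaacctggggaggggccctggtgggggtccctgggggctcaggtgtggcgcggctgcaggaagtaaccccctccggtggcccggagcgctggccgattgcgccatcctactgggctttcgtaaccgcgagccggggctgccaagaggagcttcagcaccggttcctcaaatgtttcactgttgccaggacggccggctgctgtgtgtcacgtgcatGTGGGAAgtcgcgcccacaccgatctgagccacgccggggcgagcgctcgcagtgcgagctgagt
Il33: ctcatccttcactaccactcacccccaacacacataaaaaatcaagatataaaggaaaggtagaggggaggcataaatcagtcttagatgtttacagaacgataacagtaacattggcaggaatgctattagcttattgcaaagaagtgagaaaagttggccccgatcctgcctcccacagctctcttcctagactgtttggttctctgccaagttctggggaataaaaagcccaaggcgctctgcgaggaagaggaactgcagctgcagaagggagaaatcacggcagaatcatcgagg

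The match begins 199 bases before the start in Il1rn and 15 bases before it in Il6ra, and the Il33 window holds none. RefSeq windows were given for 55 of the 70 genes and for 26 of the 34 tested. Of these 26, 2 held GTGGGAA on either strand, Il1rn and Il6ra, and the dim Il20 also held it. Counted by window, 3 of 68 windows of the genes described held it, and 6.38% of all 32851 windows of this length. Of the other starts of Il1rn and Il33, neither of 2 further Il1rn windows nor the second Il33 window held it. The STAT motif TTCNNNGAA was in windows of Il12rb2, Il18r1 and Il1r2 among the 26 (8.30% of all windows), and the NF-kB motif GGGANTTCC in that of Il12rb2 (1.68% of all windows). The RBP-J and NF-kB motifs both hold GGGA and can overlap. A match is a string of letters, not a measured site.

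Among the interleukins themselves, Il33 was the one with the lowest mean difference. Il33 codes for a nuclear alarmin released from damaged barrier and stromal cells. It read 6.19 in wild type, 2.17 in replicate 1 and 3.99 in replicate 2. Both depleted arrays lay below wild type, by 1.41 and 0.60 on the log2 scale. The depleted mean was 3.08 ± 1.29 (SD, n = 2), and the limma difference was -1.01 (SE 0.50, unadjusted p = 0.0448, adjusted p = 0.9997), which did not pass. Every scaling and pseudocount tried kept it lower in both arrays. IL-33 is also made by stroma and endothelium. Of 12 stromal and lymphoid stroma markers 11 had a probe set, with a summed level of 17.8 in wild type, 17.1 in replicate 1 and 25.5 in replicate 2. Those of the 6 endothelial markers summed to 3.49, 4.61 and 5.09. Vim, which other cells express too, made up 13.0, 12.3 and 16.6 of the stromal sum. The part of these cells in the Il33 values was not tested.

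Il18, an epithelial IL-1 family cytokine that is cut into its active form by caspase-1, read 8.62 in wild type, 6.46 in replicate 1 and 10.2 in replicate 2. The depleted arrays lay on either side of wild type, at -0.40 and 0.24. The difference in replicate 2 was close to the 0.22 of all genes. With quantile normalization the differences were -0.38 and -0.002. Il1b, made mainly by myeloid cells, read 1.47 against 1.80 and 2.84, higher in both by 0.25 and 0.85. Il15, which sustains intraepithelial lymphocytes, read 1.61 against 1.81 and 2.37. Il16, a lymphocyte attractant, read 1.12 against 1.39 and 1.66, and Il7, a lymphocyte survival factor, 1.42 against 1.13 and 1.03. Of the 3 other Il16 probe sets, 2 were higher in replicate 1 and 3 in replicate 2. The exception gave -0.79 and 0.50. The dimmer probe set of Il7 gave 0.23 and 0.74, and averaging both probe sets put Il7 higher, at a mean of 0.08. Il1f8, the IL-36 beta gene, read 0.329 against 1.30 and 0.816, differences of 1.43 and 0.88. It passed the filter only through the depleted arrays, and with a pseudocount of 1 the differences were 0.79 and 0.45.

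**Figure D2:**
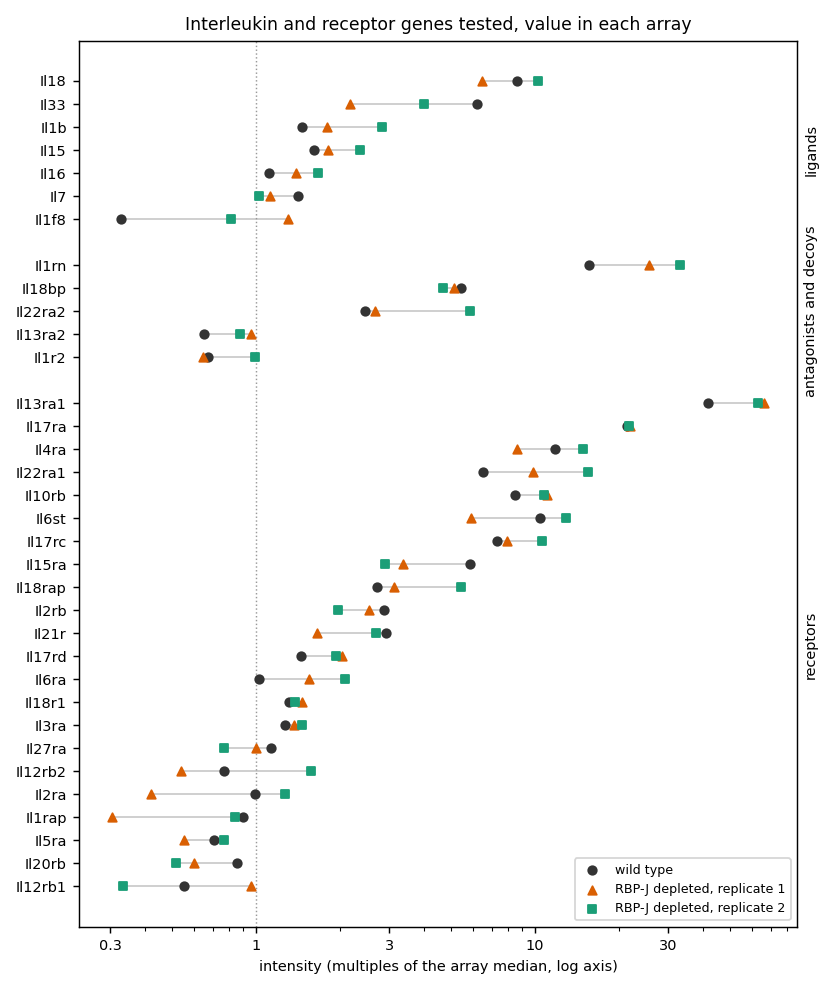
Intensity of each of the 34 genes in each array, in multiples of the array median on a log axis, grouped into ligands, antagonists and decoys, and receptors; circles are wild type, triangles and squares the depleted replicates, and the grey line spans the 3 values. The Il1rn symbols of both depleted arrays lie to the right of wild type and those of Il33 and Il15ra to the left, while the wild type symbols of Il6st, Il4ra and Il18 lie between the depleted ones.

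Among the antagonists and decoys, Il1rn stood higher in both depleted arrays on each of its probe sets. Il1rn codes for the IL-1 receptor antagonist, which occupies the IL-1 receptor without signalling. The chosen probe set read 15.6 in wild type, 25.7 in replicate 1 and 33.1 in replicate 2. Its depleted mean was 29.4 ± 5.22 (SD, n = 2), with differences of 0.71 and 1.07. The limma difference was 0.89 (SE 0.44, unadjusted p = 0.0415, adjusted p = 0.9997), which did not pass. The second probe set read 13.5 against 22.7 and 23.5, and the third 3.54 against 8.26 and 7.38. With quantile normalization the differences of the chosen probe set were 0.70 and 0.76. Il1rn is made by epithelium and by myeloid cells. The 14 macrophage and dendritic cell markers listed, 12 of them with a probe set, summed to 68.1, 67.0 and 86.2 in the same order of arrays, of which Lyz2 made up 56.9, 55.7 and 70.0. Of the 8 tested, 4 were higher in replicate 1 and 7 in replicate 2, where 49.8% and 69.7% of all genes tested were higher. Itgam read 0.543, 0.954 and 1.58, and Cx3cr1 went the other way at 1.27, 0.308 and 0.190. Their part in the Il1rn values was not tested.

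The IL-1 agonists that this antagonist opposes were dim or near the median: Il1a read 0.101 against 0.148 and 0.171, and Il1b has been given above. The signalling receptor Il1r1 read 0.317 against 0.206 and 0.662 and was not tested. The decoy receptor Il1r2 read 0.672 against 0.648 and 0.989. Il18bp, the soluble protein that binds IL-18, read 5.44 in wild type, 5.13 in replicate 1 and 4.66 in replicate 2, lower in both by 0.08 and 0.21. Il22ra2, the soluble IL-22 binding protein, read 2.46 against 2.66 and 5.83. Its difference was 0.10 in replicate 1 and 1.16 in replicate 2, so that the higher value is that of replicate 2. The binding protein is known from dendritic cells of Peyer's patches. Of the dendritic cell markers, Itgax read 1.93 against 1.79 and 3.18 and Ccr7 0.085 against 0.203 and 1.64. Flt3 read 1.07 against 0.944 and 0.962, Batf3 0.402 against 0.167 and 0.132, and Xcr1 0.214 against 0.221 and 0.174, so these markers went different ways. Their part in the Il22ra2 values was not tested. Il13ra2, the decoy for IL-13, read 0.652 against 0.960 and 0.878.

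Il22ra1, the chain that makes epithelial cells responsive to IL-22, read 6.53 in wild type, 9.86 in replicate 1 and 15.5 in replicate 2. Both depleted arrays lay above wild type, by 0.58 and 1.22. The depleted mean was 12.7 ± 4.01 (SD, n = 2), with a limma difference of 0.90 (SE 0.47, adjusted p = 0.9997). The higher value held in both arrays under each scaling and pseudocount tried, between 0.37 and 0.63 in replicate 1 and between 0.83 and 1.22 in replicate 2. Its partner Il10rb, shared by the receptors for IL-10, IL-22 and other cytokines, read 8.45 against 11.1 and 10.7, a depleted mean of 10.9 ± 0.237 (SD, n = 2). Its differences of 0.38 and 0.34 became 0.39 and 0.08 with scaling to genes with a mean of at least 5, where the median of all genes in replicate 2 was -0.02. The dimmer probe set of Il10rb gave 0.02 and 0.13. Il20rb, a chain of the IL-20 and IL-24 receptors, read 0.854 against 0.599 and 0.516, lower in both.

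Il13ra1, the chain that binds IL-13 and pairs with Il4ra, read 41.6 in wild type, 66.4 in replicate 1 and 63.1 in replicate 2. The depleted mean was 64.7 ± 2.28 (SD, n = 2), with differences of 0.67 and 0.60. The limma difference was 0.64 (SE 0.40, adjusted p = 0.9997). Its other probe sets went less clearly the same way: they gave 0.35, 0.004, -0.01 and -0.22 in replicate 1, and 0.86, 0.72, 0.50 and -0.08 in replicate 2. The chosen probe set is thus the one with the largest difference in replicate 1. Il13ra1 and Il13ra2 lie on the X chromosome, and the arrays split by Xist in the same way as by genotype. Il4ra, the chain shared by the IL-4 and IL-13 receptors, read 11.8 against 8.64 and 14.9. The depleted arrays lay on either side of wild type, at -0.44 and 0.33.

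Among receptors of the IL-2 group, Il15ra had the lowest mean difference. Il15ra presents IL-15 to neighbouring lymphocytes. It read 5.84 in wild type, 3.38 in replicate 1 and 2.89 in replicate 2, and both depleted arrays lay below wild type. The depleted mean was 3.13 ± 0.344 (SD, n = 2), with differences of -0.75 and -0.96 and a limma difference of -0.85 (SE 0.50, adjusted p = 0.9997). The dimmer probe set read 1.81 against 1.35 and 1.99, which is lower in replicate 1 alone, and with the mean of probe sets the gene's difference was -0.49. Il15 itself, given above, was not lower in either array.

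Il2rb, the signalling chain for IL-2 and IL-15 on T and NK cells, read 2.87 against 2.55 and 1.97, lower in both arrays by 0.16 and 0.49. The dimmer probe set of Il2rb read 0.762 against 0.097 and 1.73, so it was lower in replicate 1 alone. Il21r, expressed by B and T cells, read 2.92 against 1.66 and 2.69, differences of -0.73 and -0.11. Il2ra, the high-affinity IL-2 chain, read 0.992 against 0.420 and 1.27. The dimmer probe set of Il2ra went the other way, at 0.169 against 0.199 and 0.024. Il21r and the chosen probe set of Il2ra were thus lowest in replicate 1, where 7 of the 8 B cell markers measured were lower than wild type. The summed level of those markers was 41.5 in wild type, 18.1 in replicate 1 and 40.9 in replicate 2, and 4 of the 8 were higher in replicate 2. Ms4a1 read 11.1, 4.12 and 6.73, Cd79a 11.1, 5.85 and 16.7, and Cd79b 7.21, 2.11 and 8.66. Of 12 T cell markers, 2 were higher in replicate 1 and 9 in replicate 2, where 49.8% and 69.7% of all genes tested were higher, with sums of 62.3, 54.3 and 71.9. The part of these cells in the receptor values was not tested.

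Il6st, the gp130 chain through which IL-6, IL-11 and related cytokines signal, separated the depleted arrays from each other. It read 10.5 in wild type, 5.88 in replicate 1 and 13.0 in replicate 2, differences of -0.80 and 0.30. The 3 other probe sets gave -0.81, -0.25 and -0.24 in replicate 1, and 0.76, 0.66 and -0.26 in replicate 2. All 4 probe sets were thus lower in replicate 1. The Gapdh ratio of replicate 1, 2.28, was the highest, while its Actb ratio was 1.15 beside 1.11 in wild type. The part of RNA quality in the Il6st values was not tested. Il6ra, the IL-6 binding chain, read 1.03 in wild type, 1.56 in replicate 1 and 2.08 in replicate 2. It lay higher in both depleted arrays, by 0.50 and 0.87, with a limma difference of 0.69 (SE 0.55, adjusted p = 0.9997). Its other probe set gave 0.89 and -0.03.

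Il12rb2, a chain of the IL-12 receptor of T and NK cells, read 0.769 against 0.541 and 1.57, and Il12rb1, its partner, 0.553 against 0.962 and 0.335. The pair therefore went opposite ways in each depleted array, at values close to the filter. Il27ra, the receptor for IL-27, read 1.14 against 1.003 and 0.767. At least 2-fold between the depleted arrays were Il12rb2, Il2ra, Il6st and Il22ra2, higher in replicate 2, and Il12rb1, lower in it. The dimmer probe set of Il2ra was instead lower in replicate 2. Of all genes tested, 6.56% were 2-fold higher in replicate 2 than in replicate 1 and 2.50% lower.

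In the IL-17 family, 3 receptor chains were tested. Probe sets of Il17ra lay on different sides of wild type, while those of Il17rc and of Il17rd shared a side in both arrays. Il17ra, the chain common to the receptors of the family, read 21.3 in wild type, 21.9 in replicate 1 and 21.8 in replicate 2, and its differences of 0.04 and 0.03 turned to a mean of -0.13 with quantile normalization. A dimmer probe set of Il17ra gave -0.89 and -0.02. Il17rc, the partner of Il17ra for IL-17A, read 7.31 against 7.95 and 10.6, and its dimmer probe set 0.394 against 0.848 and 0.473. Il17rd, a chain that also restrains FGF signalling, read 1.45 against 2.03 and 1.94, and its dimmer probe set 0.566 against 3.12 and 1.09. Il17re, the IL-17C receptor, read 0.591 against 0.393 and 0.344 and was not tested. Il17rb and Il25, which belong to the tuft cell circuit and were left out by the naming rule, read 2.64 against 2.04 and 1.02, and 0.011 against 0.062 and 0.105.

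The remaining receptors were those of IL-1, IL-18, IL-3 and IL-5. Il1rap, the accessory chain shared by the receptors for IL-1, IL-33 and IL-36, read 0.900 in wild type, 0.305 in replicate 1 and 0.843 in replicate 2. Its difference was -1.05 in replicate 1, where its second probe set gave 1.12, and averaging its 5 probe sets gave 0.16. Il18r1, the IL-18 binding chain, read 1.31 against 1.46 and 1.38. Il18rap, its signalling partner, read 2.72 against 3.14 and 5.44, and its dimmer probe set 1.04 against 1.25 and 3.93. Il18rap was thus the higher in replicate 2 on both probe sets, by 0.94 and 1.70. Il3ra read 1.28 against 1.37 and 1.46 and Il5ra 0.707 against 0.552 and 0.766.

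Several probe sets were present for 16 of the 34 genes. All probe sets lay on the same side of wild type as the chosen one, in both arrays, for 5 of the 16: Il1rn, Il10rb, Il17rc, Il17rd and Il18rap. Il33, Il22ra1, Il22ra2 and Il1f8 have 1 probe set each, so their values rest on it.

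**Figure D3:**
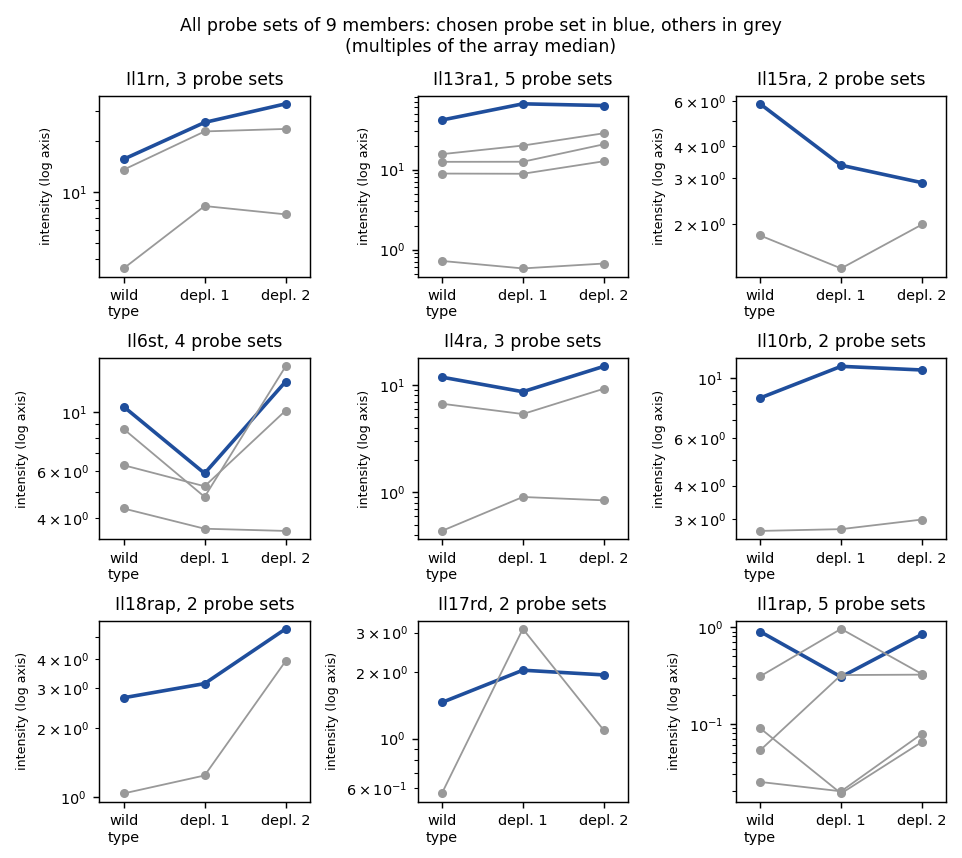
Intensity of every probe set of 9 genes in wild type and the depleted arrays, on log axes in multiples of the array median, with the chosen probe set in blue, the others in grey, and lines joining the values of 1 probe set. The 3 Il1rn probe sets lie higher in both depleted arrays, the 4 Il6st probe sets lie lower in replicate 1, and the 5 Il1rap probe sets go different ways.

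Genes that carry interleukin signals inside the cell, or modify them, were listed apart from the genes above. Of 55 listed, 51 had a probe set and 45 were tested. The limma test called 0 of the 45, and 1, Pias3, had an unadjusted p under 0.05. At least 2-fold from wild type were 2 in replicate 1, both lower, and 3 in replicate 2, 1 higher and 2 lower. Over all genes tested the shares were 2.27% at that p, and 6.42% and 5.21% at 2-fold, so these counts are near the background. Their median difference was -0.12 in replicate 1 and 0.06 in replicate 2, beside -0.003 and 0.22 over all genes tested.

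Pias3, an inhibitor of activated STAT3, read 3.40 in wild type, 1.31 in replicate 1 and 0.963 in replicate 2 (limma difference -1.41, SE 0.55, unadjusted p = 0.0102, adjusted p = 0.9997). No other gene of the list was at least 2-fold away in each depleted array. Socs3, the feedback inhibitor that binds gp130, read 7.35 against 4.14 and 3.79. Stat2 read 6.55 against 3.56 and 4.63 and the adaptor Myd88 6.79 against 4.004 and 4.69. In both arrays 13 of the 45 were higher (39.0% of all genes tested) and 16 lower (19.5% of all genes tested). Among the higher were Osmr, the oncostatin M receptor that pairs with gp130, at 2.29 against 3.26 and 4.87, Pias4 at 1.90 against 2.46 and 3.66, Tollip at 11.6 against 14.0 and 17.5, Jak2 at 25.2 against 31.6 and 31.7, and Socs2 at 13.9 against 17.5 and 17.5. Stat3, the main mediator of IL-6 and IL-22, read 14.1 against 13.8 and 15.8, and Stat6, that of IL-4 and IL-13, 33.1 against 34.4 and 34.4. Both STAT genes thus lay close to wild type.

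Genes known to be induced by interleukins in gut epithelium were listed by cytokine. Of the 15 listed for IL-22 and IL-6, 13 were tested, and the median difference was -0.78 in replicate 1, with 2 higher, and 0.38 in replicate 2, with 9 higher. Of all genes tested, 49.8% and 69.7% were higher, so the count in replicate 2 is at the background. Saa1, an acute phase apolipoprotein, read 34.0 in wild type, 5.56 in replicate 1 and 56.0 in replicate 2. Lower in both arrays were Tifa, an NF-kB adaptor, at 16.0 against 5.50 and 8.86, Nos2, the inducible nitric oxide synthase, at differences of -0.75 and -0.67, Socs3 and the lectin Reg3a. Fut2, which fucosylates epithelial surfaces, was higher in both, at 2.63 against 4.18 and 3.98. The limma test called 0 of the 13, and 2 had an unadjusted p under 0.05, beside 2.27% of all genes. In replicate 1, Il22ra1 was thus higher while most of these genes were lower.

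Of 9 genes listed for IL-17, 5 were tested, with medians of -0.40 and -0.15. The neutrophil chemokines Cxcl1 and Cxcl2 read 1.32 against 0.444 and 0.671, and 1.53 against 0.320 and 0.959. The brighter chemokine Ccl20 read 49.9 against 45.2 and 74.6, lower in replicate 1 alone. Pigr, which carries IgA across the epithelium, read 79.2 against 87.3 and 85.3. Of 14 listed for IL-4 and IL-13, 6 were tested, with medians of 0.96 and 0.19. Clca1, a goblet cell product, read 86.9 against 127 and 110, and the lectin Itln1 68.8 against 123 and 82.0. Ang4, an antimicrobial ribonuclease, read 50.0 against 110 and 61.7. Several of these genes are also products of goblet and Paneth cells, and the part of those cells was not tested. The limma test called none of the tested genes of these lists, and among those for IL-4 and IL-13 it gave Retnlb an unadjusted p of 0.0381. Retnlb, a goblet cell product, read 0.078 against 2.61 and 0.023, so it passed the filter only through replicate 1. Pou2f3, a tuft cell factor, was lower in both arrays, at 3.07 against 2.91 and 2.02. Dclk1, also a tuft cell gene, went the other way at 6.07 against 13.2 and 6.68, differences of 1.09 and 0.13.

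**Figure D4:**
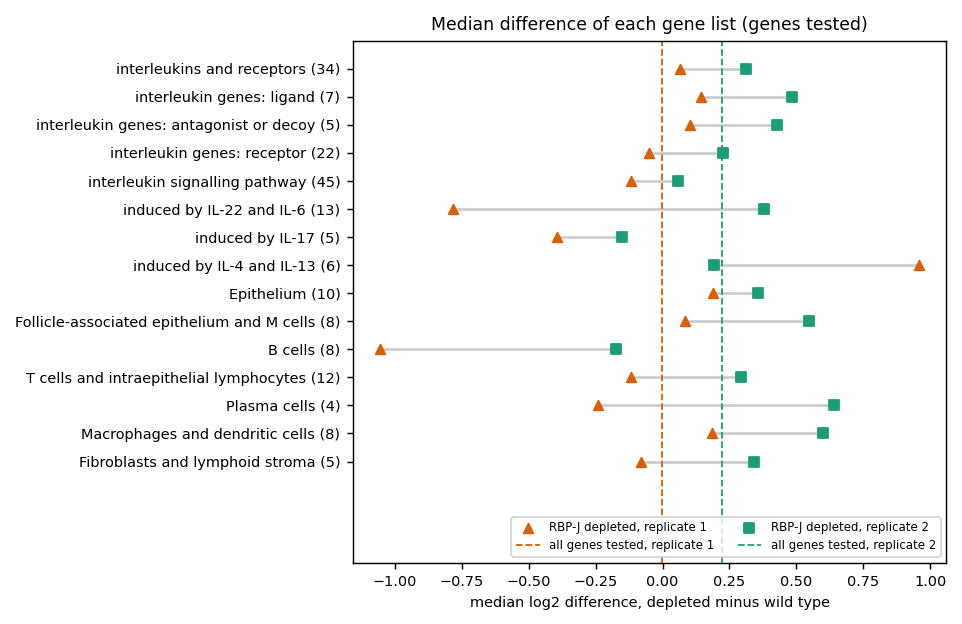
Median log2 difference from wild type of each gene list, with the number of genes tested in brackets; triangles are depleted replicate 1, squares replicate 2, and dashed lines the medians of all genes tested. The interleukin and receptor genes lie close to the dashed lines, at 0.07 and 0.31, while B cell markers lie at -1.06 and -0.17 and the genes listed for IL-22 and IL-6 at -0.78 and 0.38.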

How the data were processed

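Total RNA from follicle-associated epithelium was labelled as biotinylated cRNA and measured on 3 Affymetrix arrays, according to the protocols. The submitters' processing notes name MAS5, and the deposited values are intensities on a linear scale with a median of 1 in every array. The number of arrays limits the precision, and detection calls were not used here. Gene symbols are those of the platform annotation: of 45037 that are not controls, 34945 had 1 symbol, 932 several and 9160 none listed. All 70 genes described matched a RefSeq gene of GRCm38.p6 by Entrez number. Il2rg, Il22, Il1rl1 and Il11ra1 have no probe set of their own symbol and were not analysed here.

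Each gene took its probe set with the highest mean. Genes with a mean of at least 0.598, the 40th percentile, were tested as log2(value + 0.248), the 25th percentile of all values, with lmFit and eBayes with an intensity trend (limma 3.58.1, R 4.3.3), which was tested on simulated data. The Benjamini-Hochberg adjustment covered all 11885 genes. Each depleted array was also compared with wild type without a test. Both comparisons share the wild type array. The genes, the lists and the naming rule were chosen with earlier results of these data known. Named were genes with the largest differences in both arrays, the brightest, those with the largest gap between depleted arrays, and epithelial interleukins and receptors by role. Alternatives changed the pseudocount, filter, scaling, probe set rule and variance model, and left out each depleted array.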

Additional observations from a re-analysis of the deposited data

How the results depend on the processing

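No paired analysis was possible because wild type has a single array, whose label carries no replicate number. Under the 9 alternatives with a test, limma called none of the interleukin and receptor genes, at adjusted p of 0.9997 or above, with between 1 and 4 genes at an unadjusted p under 0.05. Of all genes it called 10, and 1 with no filter, 6 when filtering at the 60th percentile, 3 after quantile normalization, 4 after matching 75th percentiles and 5 when scaled to genes with a mean of at least 5. Of all genes, those 2-fold from wild type numbered 763 in replicate 1 and 619 in replicate 2. They were 276 and 192 with a pseudocount of 1, 31 and 17 with 5, 1284 and 1133 with no filter, 377 and 317 with the 60th percentile, and 491 and 369 with the mean of probe sets. Of the interleukin and receptor genes they were 3 and 3. In replicate 1 they were 1 with a pseudocount of 1 or the 60th percentile, 0 with a pseudocount of 5 and 5 with no filter. In replicate 2 they were 0 with a pseudocount of 5, 6 with no filter and 1 scaled to genes with a mean of at least 5. That 1 gene was Il15ra, lower at -1.20. The count in both arrays was 1, Il10ra, with no filter, and 3 with either depleted array alone. Their median difference of 0.11 was 0.32 with the 60th percentile, and between 0.0661 and 0.31 with 1 depleted array left out. That of the signalling genes, 0.04, was -0.14 with quantile normalization, -0.0895 scaled to genes whose mean reached 5, and between -0.12 and 0.059 with 1 array left out. The mean of probe sets turned Il7 (0.0758), Il1rap (0.16), Il17ra (-0.21) and Il4ra (0.24). Scaling turned Il17ra (-0.13 with quantile normalization, -0.0327 with matched 75th percentiles, -0.088 by genes whose mean reached 5) and, by the last, Il12rb1 (-0.00371) and Il18r1 (-0.00996). Leaving out an array turned Il4ra (-0.44 to 0.33), Il6st (-0.80 to 0.30), Il18 (-0.40 to 0.24), Il12rb2 (-0.37 to 0.84), Il2ra (-0.89 to 0.29), Il12rb1 (-0.46 to 0.60) and Il1r2 (-0.0381 to 0.43). The cause of these moves was not tested, beyond the smaller or larger number of genes that a filter leaves. With 1 wild type array no alternative tests how far wild type itself varies.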
